A study of Mus musculus with 6 samples.

Results

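DNA replication and G1/S genes are the genes whose products prepare, start and carry out DNA synthesis, together with the cyclins and E2F factors that control entry into S phase. The 45 genes described here were chosen by name, and all 45 were found in the deposited table of 38258 genes, 1 row each. All 45 passed the filter on low values (a mean of at least 10 normalized counts over the 6 libraries), as 23006 genes did in all. In the libraries labelled triple knockout, 32 of the 45 fell, none rose and 13 did not pass the test, relative to the control libraries. The background is a genome-wide fit with limma on the log2(normalized count + 1) scale, in which 15.3% of all tested genes fell, 20.5% rose and 35.8% changed in either direction at an adjusted p below 0.05. None of the 45 rose at an unadjusted p below 0.05 either.

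Replication is prepared in G1, when the origin recognition complex, Cdc6 and Cdt1 load the Mcm2 to Mcm7 hexamer onto DNA as an inactive helicase. At the start of S phase Cdc45 and the GINS complex join the hexamer and activate it, polymerase alpha and its primase lay down primers, and polymerases epsilon and delta extend them behind the sliding clamp Pcna. Many of these genes are transcribed in a wave at the G1/S boundary that E2F factors drive once the retinoblastoma protein has been phosphorylated by cyclin-dependent kinases. In the epidermis, cell division is largely a property of the basal layer, and cells that leave it for the spinous layer stop replicating their DNA.

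RNA-seq was made from back-skin epidermal cells of newborn mice (postnatal day 0) that were sorted as EpCAM-positive, Sca1-positive and high for α6-integrin, a gate enriched for progenitors of the interfollicular epidermis. Of the 6 libraries, 3 have the genotype Eed -/- Ring1a-/- Ring1b-/- and are called TKO-labelled here, and 3 are given only as control. *Eed* encodes a scaffold of the Polycomb histone methyltransferase, and *Ring1* (Ring1a) and *Rnf2* (Ring1b) encode ligases that ubiquitinate histone H2A within the second Polycomb complex. What drives the deletion, and which alleles the controls carry, are not stated in the labels. Nothing in the labels ties the replicates to separate animals, and the p-values therefore reflect the spread among these libraries alone, part of which may be technical.

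The libraries held 2.19e+07 to 2.98e+07 normalized counts each. Taking the most frequent low value of each library as 1 read, this is 17.8 M to 37.7 M reads, a rough figure since the values are not whole reads. The targeted genes did not all follow the labels. *Ring1* had 67.7, 104 and 112 normalized counts in the TKO-labelled libraries, against 11.8, 8.72 and 23.1 in the controls, and so was higher under the knockout label (log2 change 2.70 ± 0.40, limma adjusted p = 7.59e-04). *Eed* was lower (476 ± 115 in the TKO-labelled libraries and 835 ± 159 in the controls, log2 change −0.82 ± 0.21, limma adjusted p = 0.0144), although *Eed* did not pass when any 1 of TKO-labelled replicates 1 or 3 or control replicate 2 was left out (log2 changes −0.78 to −0.67, adjusted p = 0.0525 to 0.0615). *Rnf2* did not pass (log2 change −0.24, limma adjusted p = 0.417). The deleted exons are not named in the labels, and a value summed over a whole gene does not show whether they are gone. Of 9 markers of the sorted basal cells, all were detected in all 6 libraries, 7 were lower in the TKO-labelled libraries (*Krt5*, *Krt14*, *Krt15*, *Trp63*, *Itga6*, *Itgb4* and *Col17a1*) and 2 were higher (*Epcam* and *Ly6a*, which encodes Sca1). The basal list summed to 194141 to 206614 normalized counts in TKO-labelled libraries and 383124 to 492277 in controls. Of 7 suprabasal markers, 3 were lower and 3 higher, with sums of 21293 to 23202 and 37777 to 55501. Markers of melanocytes (5 of 5 higher, sums 895 to 1204 against 256 to 384) and Merkel cells (4 of 5 higher, sums 732 to 859.7 against 22.9 to 58.7) moved with the label, while *Atoh1*, the defining Merkel cell factor, was listed at 0 in all TKO-labelled libraries and in 2 controls. No marker of fibroblasts (0 of 6), endothelium (0 of 5) or leukocytes (0 of 4 tested of 6) passed limma, with 2 fibroblast markers lower and 1 leukocyte marker higher at an unadjusted p below 0.05. Sums in TKO-labelled libraries and controls were 9336 to 14559 and 8090.2 to 30213 for fibroblasts. Endothelial sums were 339 to 532 and 262 to 695, and leukocyte sums were 916 to 1246 and 545 to 1321. Control 3 held the highest fibroblast, endothelial and leukocyte sums of the 6 libraries. It also held the highest share of ribosomal RNA genes, mitochondrial ones included (36.6% of its normalized count, against 22.5% to 31.4% in the other libraries). The mitochondrial *mt-Rnr2* was the highest gene of each library, at 17.5% in control 3. All mitochondrial genes made up 26.0% of control 3, against 17.2% to 22.7% in the other libraries. The part of these differences in the results was not tested.

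Each step held at least 1 gene that fell, where 15.3% of all tested genes fell. Of the 10 licensing genes 8 fell (median log2 change −1.20), and of the 6 helicase activation genes 5 fell (median −0.80). Of the 8 polymerase genes 5 fell (median −0.82), of the 10 clamp, loader and Okazaki maturation genes 8 fell (median −0.72), and both chromatin assembly genes fell (median −1.25). Of the 5 G1/S regulators 3 fell (median −0.86). Of the 4 nucleotide supply genes only 1 fell (median −0.58), which for so few genes is near the share of all tested genes. Over all 45 genes the median log2 change was −0.84, against 0.01 over all tested genes, and 40 of the 45 changes were below 0, as were 49.6% of all changes. A fall of at least 2-fold was called for 18 of the 45, against 8.05% of all tested genes. All 3 TKO-labelled libraries lay below all 3 controls for 33 of the 45, where 23.0% of tested genes did so, and above all 3 controls for none, where 26.0% did. Added together, the 45 genes held 16560.4, 15084 and 17625 normalized counts in the TKO-labelled libraries, against 31004, 28787 and 34356 in the controls. The groups did not overlap, and the mean sum under the knockout label was 52.3% of the control mean. In bulk libraries such as these, fewer cycling cells and less of these RNAs per cell cannot be told apart. With 1 library left out the number of genes that fell was between 23 (without TKO-labelled replicate 1) and 30 (without control replicate 3), and 21 of the 32 passed under all 15 alternatives that were run.

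**Figure D1:**
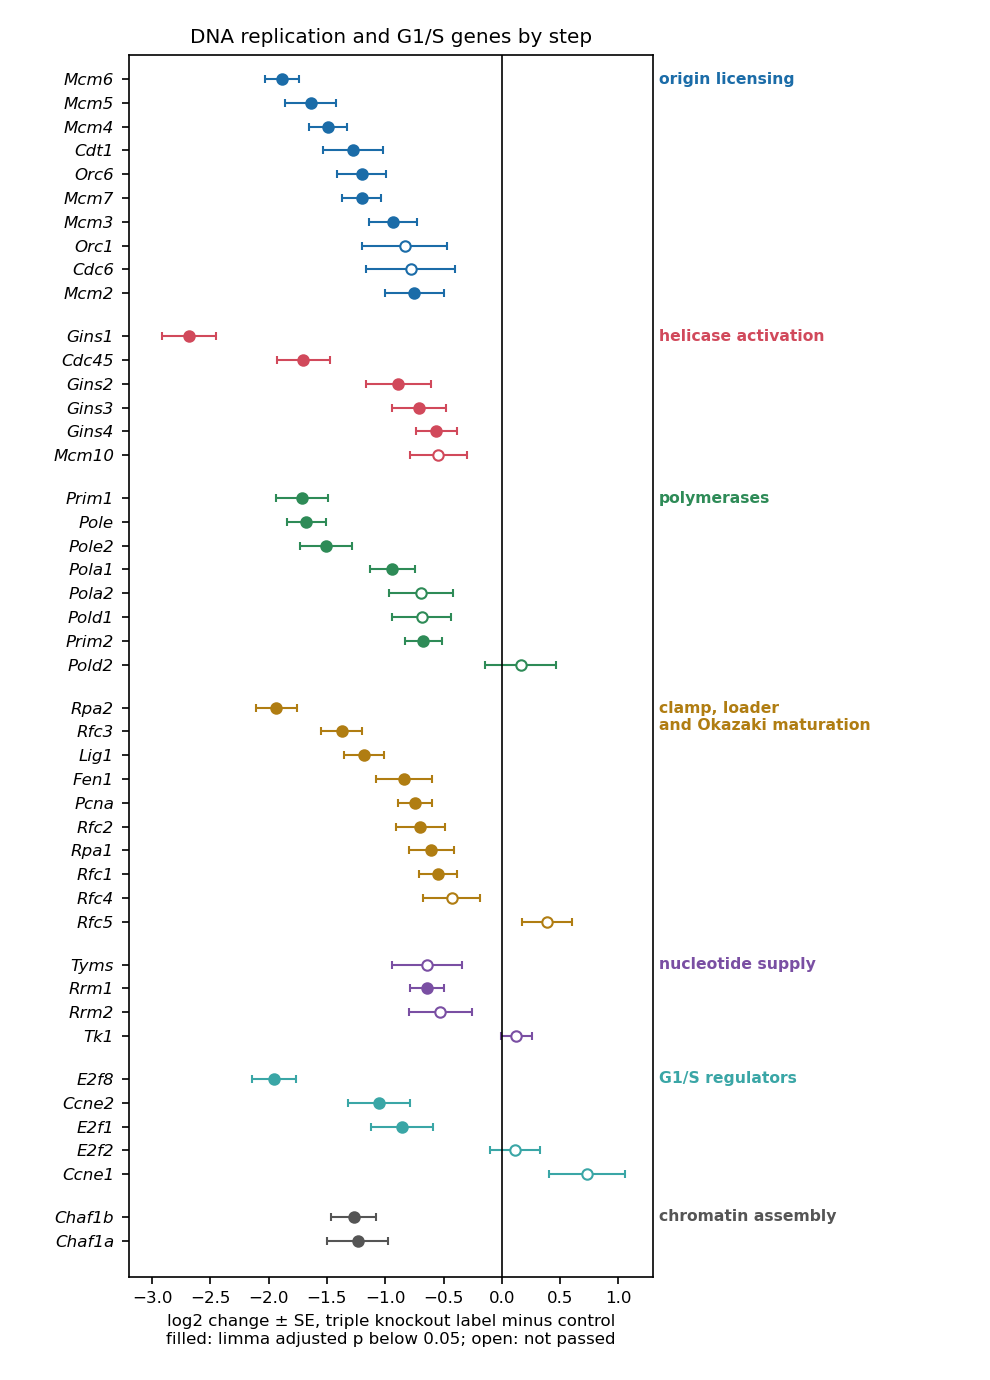
Log2 change of each of the 45 genes (horizontal axis, TKO-labelled minus control, log2(normalized count + 1)), with bars for 1 SE on either side, grouped by step. Filled points passed limma at an adjusted p below 0.05 and open points did not; 40 of the 45 points lie left of 0, with Gins1 at −2.68 the lowest and Ccne1 at 0.73 the highest.

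**Figure D2:**
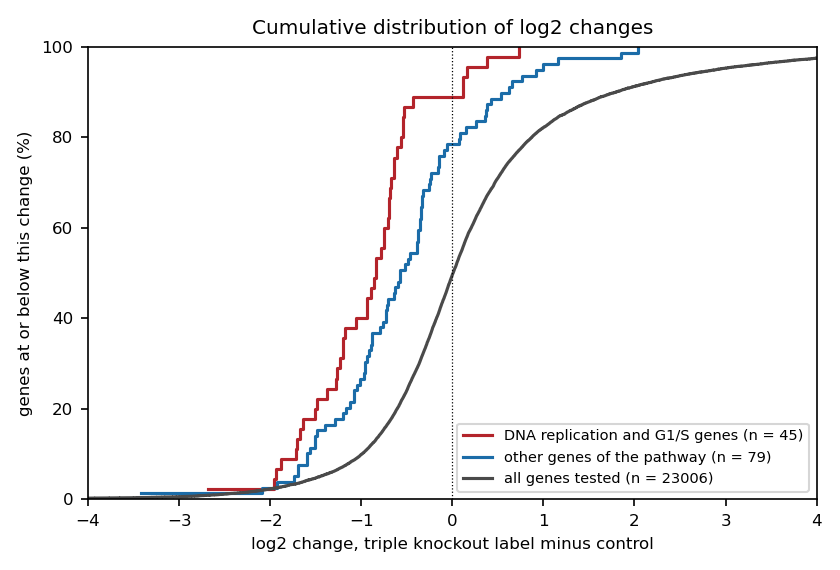
Cumulative share of genes (vertical axis, percent) at or below each log2 change (horizontal axis, TKO-labelled minus control) for the 45 DNA replication and G1/S genes, 79 other genes of the pathway and all 23006 tested genes. The curve of the 45 genes lies left of the others over most of the range, with medians of −0.84, −0.57 and 0.01; the axis ends at −4 and 4.

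The promoters of the set were read for the E2F words TTTCCCGC, TTTCGCGC, TTTGCCGC and TTTGGCGC on both strands, since E2F factors are known activators of many of these genes. RefSeq windows of 300 bases (250 before to 50 after the start site, GRCm38.p6) were matched by symbol for 37 of the 45 genes, 1 window each, nearest to the deposited start of the gene. At least 1 word was found in 13 of the 37 windows (35.1%), against 744 of all 32851 windows (2.26%). Of the genes that fell, 9 of 24 windows held a word, and of those that did not pass, 4 of 13 did. The same windows were also read for the sequences CCAAT and TTTGAA, which are not marked below. CCAAT was found in 62.2% of the 37 windows, against 37.4% of all windows. It was in 18 of 24 windows of genes that fell and 5 of 13 of those that did not pass. TTTGAA was found in 13.5% of the 37 windows, against 17.9% of all windows (5 of 24 and 0 of 13). Words on opposite strands can overlap, and the windows of different genes were not matched for base composition, so the shares are descriptions of letters only. The stretches below are shown as examples from genes of the set that fell, 4 of them from the Mcm ring; *Cdt1*, *Pole2* and *Rfc3*, which also fell, hold words too and are not printed. They run 5′ to 3′ on the strand of the gene, with the words in capitals. The *Mcm6* stretch (chr1:128359706-128359855, minus strand) and the *Mcm5* stretch (chr8:75109309-75109408, plus strand) each hold overlapping words on the 2 strands.
Mcm6: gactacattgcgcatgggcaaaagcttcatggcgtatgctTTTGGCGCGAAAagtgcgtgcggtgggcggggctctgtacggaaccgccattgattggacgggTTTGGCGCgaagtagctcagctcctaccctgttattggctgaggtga
Mcm5: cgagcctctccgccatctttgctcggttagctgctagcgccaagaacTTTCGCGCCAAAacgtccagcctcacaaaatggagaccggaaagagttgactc
Mcm7: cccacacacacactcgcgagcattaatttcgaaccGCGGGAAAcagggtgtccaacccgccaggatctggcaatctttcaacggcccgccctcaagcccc
Mcm3: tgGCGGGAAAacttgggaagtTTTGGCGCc
Gins3: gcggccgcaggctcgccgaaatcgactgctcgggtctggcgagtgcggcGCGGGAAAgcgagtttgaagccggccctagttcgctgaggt
Pola1: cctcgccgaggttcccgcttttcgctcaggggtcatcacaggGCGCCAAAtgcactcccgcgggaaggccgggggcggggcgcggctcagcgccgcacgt
The *Mcm7* stretch lies at chr5:138171984-138172083 (minus strand) and leaves out a second word after the start site, that of *Mcm3* just after its start site at chr1:20820266-20820295 (minus strand), that of *Gins3* at chr8:95633469-95633558 (plus strand) and that of *Pola1* at chrX:93632236-93632335 (minus strand). The *Mcm7* and *Gins3* stretches precede the RefSeq start site but lie inside the deposited genes, which start at 138172422 and 95633453. The words found depend on the start site used. *Mcm2*, *Cdc45*, *Prim1*, *Rpa2* and *E2f8*, which also fell, had none of the 4 words in their windows, and *Orc1*, *Cdc6*, *Pold1* and *E2f2*, which did not pass, each had 1.

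**Figure D3:**
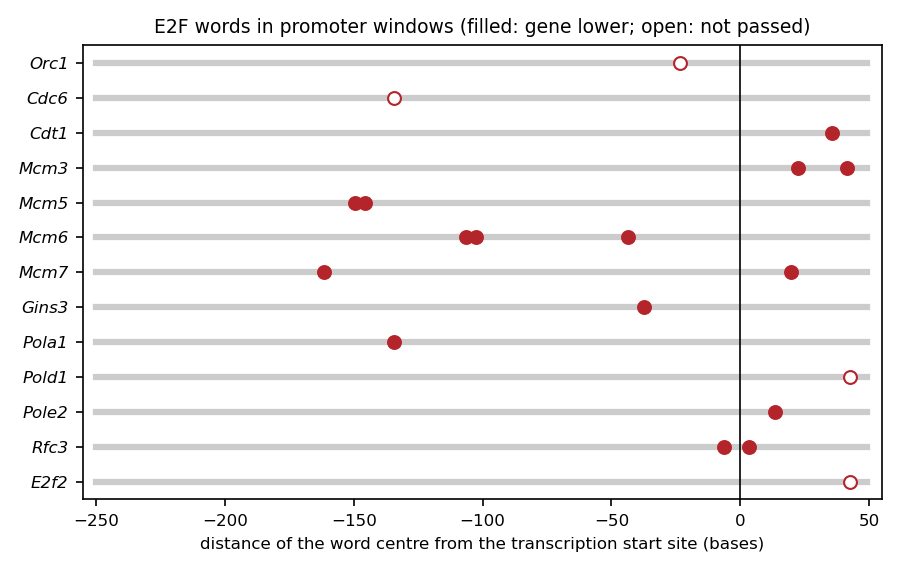
Distance of each E2F word's centre from the transcription start site (horizontal axis, bases; negative is before the start) in the 13 windows that held a word, with the grey bars marking the 300-base windows. Filled points are genes that fell (9) and open points genes that did not pass (4); the words lie on both sides of the start site, and Mcm6 has 3.

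Among the licensing genes, the 6 subunits of the Mcm2 to Mcm7 helicase all fell, to between 27.1% (*Mcm6*) and 56.98% (*Mcm2*) of their control means. *Mcm6*, whose promoter stretch holds 3 E2F words (ENSMUSG00000026355.11, GRCm38 chromosome 1, 128331590 to 128359664) had 368, 410.1 and 452 normalized counts in the TKO-labelled libraries, against 1409, 1497 and 1638 in the controls (log2 change −1.88 ± 0.15, limma adjusted p = 2.01e-05). *Mcm5* had 184, 156 and 188 normalized counts in the TKO-labelled libraries, against 577, 419 and 686 in the controls (log2 change −1.64 ± 0.21, limma adjusted p = 4.07e-04). *Mcm4* had 660.2, 658 and 759 normalized counts in the TKO-labelled libraries, against 2098, 1584 and 2196 in the controls (log2 change −1.49 ± 0.16, limma adjusted p = 1.39e-04). For each of these 3 subunits the highest TKO-labelled library lay far below the lowest control. *Mcm7* had 371, 342 and 466 normalized counts in the TKO-labelled libraries, against 859, 854 and 986 in the controls (log2 change −1.20 ± 0.17, limma adjusted p = 5.83e-04). *Mcm3* had 366, 271 and 371 normalized counts in the TKO-labelled libraries, against 557, 576 and 808 in the controls (log2 change −0.94 ± 0.21, limma adjusted p = 0.00675). *Mcm2* had 342, 338 and 422 normalized counts in the TKO-labelled libraries, against 542, 460.2 and 932 in the controls (log2 change −0.75 ± 0.26, limma adjusted p = 0.0477). The groups did not overlap for any of the 6 subunits, but the *Mcm2* controls were spread widely, with control 3 at 1.72 times the next. *Mcm2* did not pass when any 1 of TKO-labelled replicates 1, 2 or 3 or control replicates 1 or 3 was left out (log2 changes −0.85 to −0.45, adjusted p = 0.0633 to 0.138) or without the trend and robust options (−0.75, adjusted p = 0.0986). Levels per kilobase depended on the transcript length used. With the longest annotated coding transcript, the 6 subunits ranged from 52.1 (*Mcm5*) to 193 (*Mcm4*) normalized counts per kilobase in TKO-labelled libraries and from 166 (*Mcm5*) to 546 (*Mcm4*) in controls. With the median length the ranges were 66.4 (*Mcm5*) to 1052 (*Mcm4*) and 191 (*Mcm2*) to 2978 (*Mcm4*). The ratio of *Mcm6* to *Mcm2* was 1.08, 1.21 and 1.07 in the TKO-labelled libraries and 2.601, 3.25 and 1.76 in the controls. These ratios did not overlap (log2 difference −1.14 ± 0.27, exact two-sided permutation p = 0.1). The pair was chosen after the values were seen, so the p-value lends the separation no support.

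**Figure D4:**
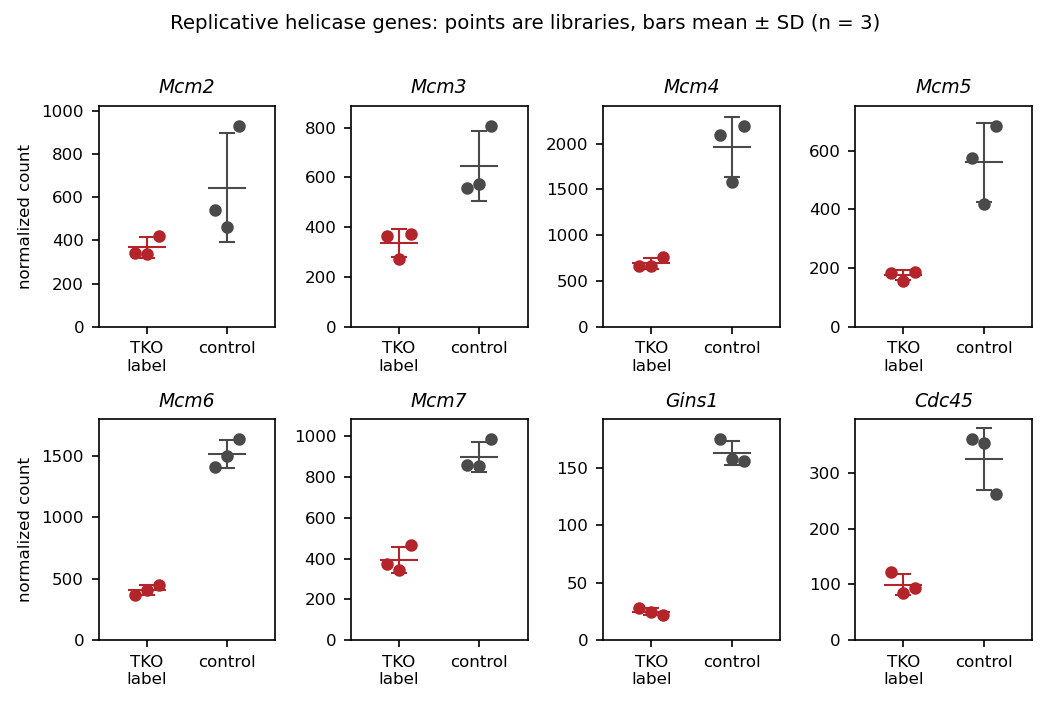
Normalized counts (vertical axes, from 0) of the 6 Mcm subunits, Gins1 and Cdc45 in each library, with the TKO-labelled libraries left of the controls. Points are replicates 1 to 3 from left to right, and bars are the mean ± SD (n = 3); no TKO-labelled point reaches a control point in any panel, and control 3 stands apart for Mcm2 at 1.72 times the next control.

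Of the factors that load the hexamer, *Cdt1* had 218, 132 and 253 normalized counts in the TKO-labelled libraries, against 521, 407 and 491 in the controls. *Orc6*, the smallest subunit of the origin recognition complex, had 159, 199 and 259 normalized counts in the TKO-labelled libraries, against 423, 498 and 481 in the controls. Both fell without overlap (log2 change −1.27 ± 0.25, limma adjusted p = 0.00404 for *Cdt1*; log2 change −1.20 ± 0.21, limma adjusted p = 0.00200 for *Orc6*). *Orc1*, the largest subunit of the complex, had 70.5, 224 and 119.7 normalized counts in the TKO-labelled libraries, against 239, 219 and 206 in the controls, and did not pass (log2 change −0.83 ± 0.36, limma adjusted p = 0.106). TKO-labelled replicate 2 lay among the controls for *Orc1* while the other two lay below them. *Orc1* passed without TKO-labelled replicate 2 (−1.26, adjusted p = 0.0142) and with quantile normalization (−1.06, adjusted p = 0.0418). *Cdc6*, the ATPase that works with the complex in loading, had 50.3, 28.02 and 45.8 normalized counts in the TKO-labelled libraries, against 95.04, 40.99 and 87.1 in the controls, with overlap, and did not pass (log2 change −0.78 ± 0.38, limma adjusted p = 0.143). *Cdc6* passed without control replicate 2 (−1.16, adjusted p = 0.0333). Exons of *Orc1* share 10.8% of their bases with *Gm12743* on the opposite strand, and exons of *Orc6* share 6.93% with *Vps35*. Elsewhere in the set, *Mcm7* shares 7.25% with *Ap4m1* on the opposite strand, which averaged 325 normalized counts in the TKO-labelled libraries and 668 in the controls. *Pole2* shares 8.50% with *Gm49384* on the same strand. Smaller overlaps are not all given.

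The helicase activation genes held the steepest fall of the 45. *Gins1* (ENSMUSG00000027454.10, chromosome 2, 150905400 to 150931280), a subunit of the 4-part GINS ring that joins the hexamer, had 27.5, 24.8 and 21.7 normalized counts in the TKO-labelled libraries, against 175, 158 and 157 in the controls (log2 change −2.68 ± 0.23, limma adjusted p = 3.89e-05). It stood at 15.1% of its control mean. *Cdc45*, the partner of GINS in the active helicase, had 121, 83.7 and 93.8 normalized counts in the TKO-labelled libraries, against 361, 354 and 262 in the controls (log2 change −1.70 ± 0.23, limma adjusted p = 4.43e-04). Both were called under each of the 15 alternatives. The other 3 GINS subunits fell with smaller log2 changes. *Gins2* had 769, 586 and 891 normalized counts in the TKO-labelled libraries, against 1013, 1171 and 2154 in the controls (log2 change −0.89 ± 0.28, limma adjusted p = 0.0334), with control 3 at 1.84 times the next control. *Gins3* averaged 44.2 ± 3.13 in the TKO-labelled libraries and 72.9 ± 4.58 in the controls (SD, n = 3 each; log2 change −0.71 ± 0.23, limma adjusted p = 0.0411). *Gins4* averaged 285 ± 20.9 in the TKO-labelled libraries and 423 ± 56.2 in the controls (SD, n = 3 each; log2 change −0.56 ± 0.17, limma adjusted p = 0.0322). Their calls were close to the threshold. *Gins2* did not pass without TKO-labelled replicate 1 (−0.92, adjusted p = 0.0811), without TKO-labelled replicate 2 (−0.72, adjusted p = 0.127) or without the trend and robust options (−0.89, adjusted p = 0.0853). *Gins3* did not pass when any 1 of TKO-labelled replicates 1, 2 or 3 or control replicates 1, 2 or 3 was left out (log2 changes −0.76 to −0.67, adjusted p = 0.0688 to 0.111), with no filter on low values (−0.71, adjusted p = 0.0793), with a mean of at least 50 (−0.71, adjusted p = 0.0504) or after correction for GC content and length (−0.61, adjusted p = 0.0828). *Gins4* did not pass when any 1 of TKO-labelled replicates 1, 2 or 3 or control replicates 1 or 2 was left out (log2 changes −0.61 to −0.50, adjusted p = 0.0638 to 0.106), with no filter on low values (−0.56, adjusted p = 0.0506) or without the trend and robust options (−0.56, adjusted p = 0.0552). The number of helicase activation genes that fell was 2 without TKO-labelled replicate 1 or 2 and 3 without control replicate 1 or 2. *Gins2* shares 67.3% of its exon bases with *Gse1* on the opposite strand, which stood at 2022 normalized counts in the TKO-labelled libraries and 1983 in the controls on average. Without strand, reads of the 2 genes in the shared bases cannot be told apart, here and for the other overlaps given. The ratio of *Gins1* to *Gins2* was 0.0358, 0.0424 and 0.0244 in the TKO-labelled libraries and 0.173, 0.135 and 0.0727 in the controls (log2 difference −1.84 ± 0.44, exact two-sided permutation p = 0.1). This pair, too, was chosen after the values were seen. *Mcm10*, which helps the assembled helicase to start, had 117, 113 and 182 normalized counts in the TKO-labelled libraries, against 179, 181 and 234 in the controls, with overlap between TKO-labelled replicate 3 and the controls, and did not pass (log2 change −0.54 ± 0.24, limma adjusted p = 0.115). *Mcm10* passed without TKO-labelled replicate 3 (−0.76, adjusted p = 0.0481) and with quantile normalization (−0.78, adjusted p = 0.0263).

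Among the polymerases, *Pole* and *Pole2*, 2 of the 4 subunits of polymerase epsilon, which copies the leading strand, fell. *Pole*, the catalytic subunit, had 368, 305 and 394 normalized counts in the TKO-labelled libraries, against 1175, 998 and 1239.8 in the controls (log2 change −1.68 ± 0.16, limma adjusted p = 7.82e-05). *Pole2*, its second subunit, had 148, 109 and 90.2 normalized counts in the TKO-labelled libraries, against 317, 324 and 333 in the controls (log2 change −1.51 ± 0.22, limma adjusted p = 7.50e-04). The groups lay well apart for both genes. The small subunits *Pole3* (adjusted p = 0.0975) and *Pole4* (adjusted p = 0.301), listed among the further genes of the pathway, did not pass. Of the polymerase alpha and primase complex, *Prim1*, the primase catalytic subunit, had 165, 153 and 233 normalized counts in the TKO-labelled libraries, against 515, 548 and 749 in the controls (log2 change −1.72 ± 0.23, limma adjusted p = 4.12e-04). *Prim2*, the large primase subunit, averaged 363 ± 46.01 in the TKO-labelled libraries and 576 ± 28.1 in the controls (SD, n = 3 each; log2 change −0.67 ± 0.16, limma adjusted p = 0.0104), and did not pass without TKO-labelled replicate 2 (−0.57, adjusted p = 0.0502). *Pola1*, the catalytic subunit of polymerase alpha, averaged 463 ± 93.6 in the TKO-labelled libraries and 882 ± 127 in the controls (SD, n = 3 each; log2 change −0.94 ± 0.19, limma adjusted p = 0.00450). *Pola2*, its accessory subunit, had 186, 227 and 231 normalized counts in the TKO-labelled libraries, against 421, 446 and 221 in the controls, and did not pass (log2 change −0.69 ± 0.27, limma adjusted p = 0.0782). Control 3 lay among the TKO-labelled values and the other controls above them. *Pola2* passed without control replicate 3 (−1.02, adjusted p = 0.00132) and with quantile normalization (−0.90, adjusted p = 0.0271). *Pold1* and *Pold2*, 2 subunits of polymerase delta, which copies the lagging strand, did not pass. Of its other subunits, listed among the further genes of the pathway, *Pold3* fell without overlap (log2 change −0.92 ± 0.17, limma adjusted p = 0.00310). *Pold4* rose (log2 change 2.03 ± 0.32, limma adjusted p = 0.00106). *Pold1*, the catalytic subunit, had 78.8, 93.3 and 75.1 normalized counts in the TKO-labelled libraries, against 134, 172 and 101 in the controls, without overlap (log2 change −0.69 ± 0.25, limma adjusted p = 0.0614). *Pold1* passed without control replicate 3 (−0.88, adjusted p = 0.0144), with quantile normalization (−0.94, adjusted p = 0.0172) and after correction for GC content and length (−1.39, adjusted p = 0.00656). *Pold2* had 241, 286 and 291 normalized counts in the TKO-labelled libraries, against 184, 189 and 412 in the controls (log2 change 0.16 ± 0.30, limma adjusted p = 0.71997). The first 2 *Pold2* controls lay below all TKO-labelled libraries and control 3 lay above them, and its sign turned with quantile normalization (−0.038), after correction for GC content and length (−0.37) and without control replicate 1 (−0.038) or 2 (−0.020). *Pold2* passed without control replicate 3 (0.54, adjusted p = 0.0415).

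Of the proteins that hold and finish the new strand, *Rpa2*, a subunit of the single-strand binding protein RPA, fell the most. It had 142, 119 and 153 normalized counts in the TKO-labelled libraries, against 562, 521 and 503 in the controls (log2 change −1.93 ± 0.18, limma adjusted p = 5.44e-05). Its partner *Rpa1*, the large subunit, averaged 320.1 ± 51.8 in the TKO-labelled libraries and 487 ± 77.9 in the controls (SD, n = 3 each; log2 change −0.61 ± 0.19, limma adjusted p = 0.0348). *Rpa1* did not pass when any 1 of TKO-labelled replicates 1 or 3 or control replicates 2 or 3 was left out (log2 changes −0.65 to −0.48, adjusted p = 0.0581 to 0.125) or without the trend and robust options (−0.61, adjusted p = 0.0672). The small RPA subunit *Rpa3*, listed among the further genes of the pathway, overlapped between groups and did not pass (log2 change −0.058 ± 0.23, limma adjusted p = 0.871). *Pcna*, the sliding clamp, had 1867, 1587 and 1878 normalized counts in the TKO-labelled libraries, against 2813, 2672 and 3494 in the controls (log2 change −0.75 ± 0.15, limma adjusted p = 0.00374). *Lig1*, the ligase that seals Okazaki fragments, had 519, 477 and 682 normalized counts in the TKO-labelled libraries, against 1377, 1260.1 and 1140.4 in the controls (log2 change −1.18 ± 0.17, limma adjusted p = 7.21e-04). *Fen1*, the flap endonuclease of the same step, averaged 78.7 ± 11.9 in the TKO-labelled libraries and 142 ± 27.2 in the controls (SD, n = 3 each; log2 change −0.84 ± 0.24, limma adjusted p = 0.0227). *Fen1* did not pass when any 1 of TKO-labelled replicates 1 or 3 or control replicate 1 was left out (log2 changes −0.79 to −0.73, adjusted p = 0.0744 to 0.0783). It shares 78.8% of its exon bases with *Gm10143* on the opposite strand, which averaged 58.8 normalized counts in the TKO-labelled libraries and 99.1 in the controls. The 5 subunits of the clamp loader RFC were not all called. *Rfc3* had 146, 165 and 134 normalized counts in the TKO-labelled libraries, against 402, 387 and 364 in the controls (log2 change −1.37 ± 0.18, limma adjusted p = 3.71e-04). *Rfc1*, the large subunit, averaged 779 ± 77.5 in the TKO-labelled libraries and 1143 ± 175 in the controls (SD, n = 3 each; log2 change −0.55 ± 0.16, limma adjusted p = 0.0270), and *Rfc2* averaged 259 ± 55.7 in the TKO-labelled libraries and 417 ± 58.98 in the controls (SD, n = 3 each; log2 change −0.70 ± 0.21, limma adjusted p = 0.0268). Without overlap, these 3 subunits fell, while *Rfc4* and *Rfc5* did not pass. *Rfc1* did not pass when any 1 of TKO-labelled replicates 2 or 3 or control replicate 1 was left out (log2 changes −0.55 to −0.47, adjusted p = 0.0760 to 0.108) or without the trend and robust options (−0.55, adjusted p = 0.0738). *Rfc2* did not pass when any 1 of TKO-labelled replicates 1 or 2 or control replicate 2 was left out (log2 changes −0.68 to −0.56, adjusted p = 0.0802 to 0.107) or without the trend and robust options (−0.70, adjusted p = 0.0537). *Rfc4* averaged 121 ± 37.8 in the TKO-labelled libraries and 158 ± 9.24 in the controls (SD, n = 3 each; log2 change −0.43 ± 0.25, limma adjusted p = 0.211). *Rfc5* had 508, 499 and 582 normalized counts in the TKO-labelled libraries, against 550.5, 319 and 376 in the controls (log2 change 0.39 ± 0.21, limma adjusted p = 0.196), where control 1 lay among the TKO-labelled libraries and the other controls below them. *Rfc5* passed without control replicate 1 (0.61, adjusted p = 0.0411). *Rfc5* shares 10.7% of its exon bases with *Wsb2* on the opposite strand, which averaged 1001 normalized counts in the TKO-labelled libraries and 528 in the controls. *Rfc2* shares 15.1% with *Lat2* and *Rfc4* 12.7% with *Eif4a2*, also on the opposite strand. The ratio of *Rfc5* to *Rfc3* was 3.47, 3.03 and 4.35 in the TKO-labelled libraries and 1.37, 0.822 and 1.03 in the controls (log2 difference 1.77 ± 0.26, exact two-sided permutation p = 0.1). This pair, too, was chosen after the values were seen. The number of genes of this step that fell was 5 without TKO-labelled replicate 1 or 3.

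The genes of nucleotide supply showed the smallest median change of the 7 steps. *Rrm1*, the large subunit of ribonucleotide reductase, had 2073, 1578 and 1901 normalized counts in the TKO-labelled libraries, against 3214, 2780.3 and 2647 in the controls (log2 change −0.64 ± 0.15, limma adjusted p = 0.00816). It was the only one of the 4 to pass. *Rrm2*, the small subunit, whose protein is made in S phase, had 401, 331 and 476 normalized counts in the TKO-labelled libraries, against 428, 501 and 885 in the controls (log2 change −0.53 ± 0.27, limma adjusted p = 0.164). *Tyms*, thymidylate synthase, had 669, 429 and 674 normalized counts in the TKO-labelled libraries, against 779.9, 651 and 1452 in the controls (log2 change −0.64 ± 0.30, limma adjusted p = 0.1295). In both genes control 3 stood above the other 5 libraries, at 1.77 times the next control for *Rrm2* and 1.86 times for *Tyms*. Control 1 lay among the TKO-labelled libraries for *Rrm2*, and control 2 did so for *Tyms*. The remaining control of each gene lay above all TKO-labelled libraries. The pseudogene *Tyms-ps* was listed at 0 in all libraries but control 3, where it had 3.01 normalized counts. *Tk1*, thymidine kinase of the salvage route, had 954, 919.99 and 853 normalized counts in the TKO-labelled libraries, against 789, 854 and 862 in the controls (log2 change 0.12 ± 0.13, limma adjusted p = 0.512). The *Tk1* values of the groups overlapped, and the sign of the change turned after correction for GC content and length (−0.15). The ratio of *Tk1* to *Rrm1* was 0.4603, 0.583 and 0.449 in the TKO-labelled libraries and 0.246, 0.307 and 0.326 in the controls (log2 difference 0.77 ± 0.17, exact two-sided permutation p = 0.1). This pair, too, was chosen after the values were seen.

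Of the G1/S regulators, *E2f8*, an atypical E2F that represses transcription, fell the most. It had 377, 596 and 538 normalized counts in the TKO-labelled libraries, against 2084, 1869.6 and 1809 in the controls (log2 change −1.95 ± 0.19, limma adjusted p = 6.69e-05), without overlap. *E2f1*, an activator E2F, had 97.5, 119 and 113 normalized counts in the TKO-labelled libraries, against 163, 165 and 295 in the controls (log2 change −0.86 ± 0.27, limma adjusted p = 0.0320), with control 3 at 1.78 times the next control. *E2f1* did not pass when any 1 of TKO-labelled replicates 1, 2 or 3 or control replicate 3 was left out (log2 changes −0.92 to −0.58, adjusted p = 0.0559 to 0.105) or without the trend and robust options (−0.86, adjusted p = 0.0546). *E2f2*, another activator, had 394, 451 and 338 normalized counts in the TKO-labelled libraries, against 407, 276 and 423 in the controls, with overlap, and did not pass (log2 change 0.11 ± 0.21, limma adjusted p = 0.719). The sign of the *E2f2* change turned with quantile normalization (−0.042), after correction for GC content and length (−0.41) and without control replicate 2 (−0.083). The 2 E-type cyclins, which activate Cdk2 at the G1/S boundary, were called differently. *Ccne2* had 47.1, 68.1 and 70.9 normalized counts in the TKO-labelled libraries, against 101, 155 and 133 in the controls (log2 change −1.05 ± 0.27, limma adjusted p = 0.0131). *Ccne1* had 74.7, 89.2 and 68.03 normalized counts in the TKO-labelled libraries, against 70.6, 44.6 and 30.7 in the controls, and did not pass (log2 change 0.73 ± 0.33, limma adjusted p = 0.115), with control 1 among the TKO-labelled libraries. *Ccne2* did not pass without TKO-labelled replicate 1 (−0.87, adjusted p = 0.0518), without control replicate 2 (−0.91, adjusted p = 0.0521) or after correction for GC content and length (−0.71, adjusted p = 0.0718). *Ccne1* passed without control replicate 1 (1.03, adjusted p = 0.0340). The ratio of *Ccne1* to *Ccne2* was 1.59, 1.31 and 0.9598 in the TKO-labelled libraries and 0.698, 0.287 and 0.232 in the controls. All TKO-labelled ratios lay above all control ratios (log2 difference 1.81 ± 0.53, exact two-sided permutation p = 0.1). Exons of *Ccne2* share 17.4% of their bases with *Ints8* and those of *E2f8* 11.2% with *Gm2788*, on the opposite strand. The 5 ratios between genes given here were chosen after the values were seen, so their p-values lend the separations no support. Each exact permutation p is 0.1 also when adjusted over the 5, and no smaller value can be had with 3 libraries a group. The number of G1/S regulators that fell was 1 without TKO-labelled replicate 1.

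**Figure D5:**
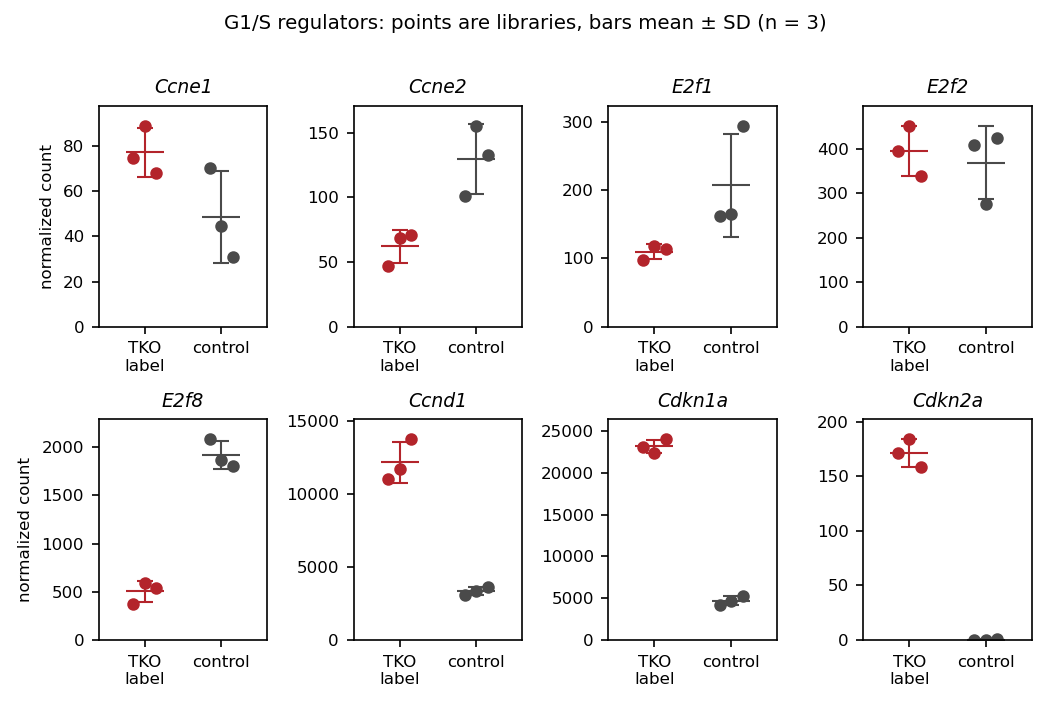
Normalized counts (vertical axes, from 0) of 5 G1/S regulators of the set and of Ccnd1, Cdkn1a and Cdkn2a in each library, with the TKO-labelled libraries left of the controls. Points are replicates 1 to 3 from left to right and bars are the mean ± SD (n = 3); E2f8 and Ccne2 are lower and Ccnd1, Cdkn1a and Cdkn2a higher under the knockout label without overlap, while Ccne1 and E2f2 overlap.

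Both large subunits of chromatin assembly factor 1, which places histones on new DNA behind the fork, fell. *Chaf1a* had 307, 227 and 252 normalized counts in the TKO-labelled libraries, against 664, 846 and 412 in the controls (log2 change −1.24 ± 0.26, limma adjusted p = 0.00563). *Chaf1b* had 196, 176 and 222 normalized counts in the TKO-labelled libraries, against 449.8, 415 and 578 in the controls (log2 change −1.27 ± 0.19, limma adjusted p = 9.32e-04). The groups did not overlap for either gene, and both calls held under each of the 15 alternatives. *Chaf1a* shares 52.5% of its exon bases with *Ubxn6* on the opposite strand, which averaged 428 normalized counts in the TKO-labelled libraries and 427 in the controls.

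Within groups, control 3 was the highest control for 24 of the 45 genes, control 1 for 15 and control 2 for 6. Among the TKO-labelled libraries, replicate 3 was the highest for 26 and replicate 2 the lowest for 25. For 7 genes the highest control exceeded 1.5 times the next, and for 6 of these (*Mcm2*, *Gins2*, *Pold2*, *Rrm2*, *Tyms* and *E2f1*) it was control 3. That library also had the highest fibroblast, endothelial and leukocyte marker sums and the highest share of ribosomal RNA genes, and a link was not tested. Without control 3 the 45 genes had a median log2 change of −0.78 and 30 fell.

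A further 79 genes of replication and G1/S control, listed by role, gave 37 that fell and 8 that rose, with 34 that did not pass and a median log2 change of −0.57. Of all tested genes, 15.3% fell and 20.5% rose. Of 11 genes of origin firing and fork protection 8 fell and none rose. *Clspn*, the checkpoint adaptor at the fork, averaged 352 ± 28.04 in the TKO-labelled libraries and 1016 ± 237 in the controls (log2 change −1.50 ± 0.20, limma adjusted p = 4.26e-04). *Ticrr*, a firing factor, averaged 596 ± 87.3 in the TKO-labelled libraries and 1331 ± 161 in the controls. *Wdhd1*, which ties polymerase alpha to the helicase, averaged 244 ± 57.4 in the TKO-labelled libraries and 681 ± 140.3 in the controls. Both fell. *Timeless* (474 ± 101 in the TKO-labelled libraries and 445 ± 57.05 in the controls) and *Mtbp* (282 ± 75.02 in the TKO-labelled libraries and 307 ± 47.3 in the controls) did not pass. Among other licensing genes 5 of 9 fell. *Gmnn*, the inhibitor of Cdt1, averaged 84.98 ± 9.39 in the TKO-labelled libraries and 259.7 ± 30.4 in the controls. *Mcm9* averaged 400.4 ± 57.3 in the TKO-labelled libraries and 853 ± 153 in the controls, and the origin recognition subunit *Orc5* averaged 125 ± 5.98 in the TKO-labelled libraries and 245 ± 29.5 in the controls. These were among the 5. The subunits *Orc3* (1380.5 ± 85.9 in the TKO-labelled libraries and 1639.9 ± 128 in the controls) and *Orc4* (742 ± 156 in the TKO-labelled libraries and 936 ± 124 in the controls) did not pass. Among other genes of loaders and strand maturation 7 of 14 fell and 1 rose. *Atad5*, which unloads the clamp, fell to 489.5 ± 49.2 in the TKO-labelled libraries, against 1867 ± 291 in the controls. *Dscc1*, a subunit of an alternative clamp loader, averaged 68.1 ± 10.9 in the TKO-labelled libraries and 181 ± 29.2 in the controls and fell. *Pold4*, the smallest subunit of polymerase delta, was the gene of this list that rose, with 102, 142 and 144 normalized counts in the TKO-labelled libraries, against 22.3, 27.2 and 46.2 in the controls (log2 change 2.03 ± 0.32, limma adjusted p = 0.00106). *Top1* (4741 ± 196 in the TKO-labelled libraries and 5585 ± 299.6 in the controls) and *Chtf8* (1051 ± 31.7 in the TKO-labelled libraries and 990.3 ± 374 in the controls) did not pass.

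Other nucleotide supply genes fell for 3 of 13 and rose for 2, and 8 did not pass, where 15.3% of all tested genes fell and 20.5% rose. *Shmt1* (651 ± 59.8 in the TKO-labelled libraries and 1224 ± 224 in the controls) and *Dut* (198 ± 30.3 in the TKO-labelled libraries and 367 ± 76.9 in the controls), which supply and protect the thymidylate route, were among those that fell. The *Dut* call was lost without TKO-labelled replicate 2 (adjusted p = 0.0509). *Samhd1* (731 ± 64.7 in the TKO-labelled libraries and 565 ± 212 in the controls) and *Gart* (571 ± 84.01 in the TKO-labelled libraries and 604 ± 19.8 in the controls) did not pass. All 9 genes of chromatin replication had changes below 0 and 6 of them fell. The 6 include *Cdca7* (67.2 ± 22.1 in the TKO-labelled libraries and 279 ± 16.2 in the controls), the hemimethylation reader *Uhrf1* (563 ± 32.3 in the TKO-labelled libraries and 1137 ± 43.5 in the controls) and the maintenance methyltransferase *Dnmt1* (2193 ± 159 in the TKO-labelled libraries and 4035 ± 364 in the controls). *Supt16* (2796 ± 65.8 in the TKO-labelled libraries and 3122 ± 253 in the controls) and *Nasp* (1281 ± 80.9 in the TKO-labelled libraries and 1704 ± 400.4 in the controls) did not pass. Of 23 other G1/S regulators 8 fell and 5 rose, the second a share near the 20.5% of all tested genes that rose. *Ccnd1*, the D-type cyclin that starts the phosphorylation of the retinoblastoma protein in G1, had 11032, 11698 and 13737 normalized counts in the TKO-labelled libraries, against 3068, 3382 and 3631 in the controls (log2 change 1.85 ± 0.13, limma adjusted p = 1.24e-05). *Ccnd2*, another D cyclin (35333 ± 3898 in the TKO-labelled libraries and 20983 ± 4049.7 in the controls), rose as well. *Myc*, a transcription factor of growth, averaged 1270.1 ± 184 in the TKO-labelled libraries and 4087 ± 202 in the controls (log2 change −1.69 ± 0.14, limma adjusted p = 3.07e-05). *Tfdp2*, a partner of E2F factors, averaged 759.9 ± 70.01 in the TKO-labelled libraries and 2299 ± 69.9 in the controls (log2 change −1.60 ± 0.13, limma adjusted p = 2.64e-05). *Fbxo5*, an inhibitor of the anaphase-promoting complex, had 15.1, 18.7 and 31.3 normalized counts in the TKO-labelled libraries, against 254, 216 and 224 in the controls, the steepest fall of the 79 (log2 change −3.41 ± 0.30, limma adjusted p = 3.91e-05). *E2f7*, the other atypical E2F, averaged 744 ± 95.97 in the TKO-labelled libraries and 2132 ± 437 in the controls (log2 change −1.50 ± 0.18, limma adjusted p = 2.57e-04). *Ccnd2*, *Fbxo5* and *E2f7* were singled out after their values were seen. *Cdk6* (7945 ± 556 in the TKO-labelled libraries and 6684 ± 1036 in the controls) and *Cdk4* (1719.9 ± 239 in the TKO-labelled libraries and 1398 ± 562 in the controls), the kinases that D cyclins activate, did not pass. Of those of the 79 that are named here as not called, 4 passed as higher when control replicate 3 was left out. They were *Cdk6* (log2 change 0.38, adjusted p = 0.0173), *Cdk4* (0.67, adjusted p = 0.00362), *Samhd1* (0.72, adjusted p = 0.00306) and *Chtf8* (0.44, adjusted p = 0.0325). The number of these 79 genes that rose was 14 without control replicate 3, 5 without TKO-labelled replicate 2 and 4 without TKO-labelled replicate 3.

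The inhibitors of cyclin-dependent kinases, which stand upstream of the G1/S wave, gave 4 of 7 higher and 2 lower in the same libraries. Of all tested genes, 20.5% were higher and 15.3% lower. *Cdkn1a* (p21) had 23053, 22431 and 24029 normalized counts in the TKO-labelled libraries, against 4176, 4665 and 5256 in the controls. *Cdkn2a*, the Polycomb-repressed locus of p16 and p19Arf, had 171, 184 and 159 normalized counts in the TKO-labelled libraries, against 0, 0 and 0.987 in the controls. *Cdkn2b* (p15) averaged 277 ± 59.7 in the TKO-labelled libraries and 5.51 ± 2.39 in the controls and *Cdkn1c* (p57) averaged 1401 ± 190.1 in the TKO-labelled libraries and 485 ± 166 in the controls. These 4 rose, whereas *Cdkn1b* (p27, 579 ± 76.4 in the TKO-labelled libraries and 972 ± 65.3 in the controls) and *Cdkn2c* (p18, 74.2 ± 13.6 in the TKO-labelled libraries and 163 ± 11.1 in the controls) fell and *Cdkn2d* (211 ± 58.02 in the TKO-labelled libraries and 314 ± 73.9 in the controls) did not pass, except without control replicate 3 (−0.74, adjusted p = 0.0443), with quantile normalization (−0.80, adjusted p = 0.0361) and after correction for GC content and length (−0.88, adjusted p = 0.0250). Of 25 mitosis genes 23 fell, against 15.3% of all tested genes, and none rose by limma (0 higher at an unadjusted p below 0.05). Their median log2 change was −1.61, beside the median of −0.84 of the 45 replication and G1/S genes. *Ccnb1*, the mitotic cyclin, averaged 346 ± 40.5 in the TKO-labelled libraries and 1372 ± 167 in the controls. Its kinase *Cdk1* averaged 389.5 ± 48.8 in the TKO-labelled libraries and 1156 ± 132 in the controls. *Incenp*, of the chromosomal passenger complex, averaged 372 ± 47.1 in the TKO-labelled libraries and 1367 ± 206 in the controls. All 3 fell. Whether mitosis and replication genes fell to different degrees was not tested.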

How the data were processed

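RNA of 3 TKO-labelled and 3 control libraries was measured by RNA-seq after amplification from nanogram amounts, as single reads, per the labels' protocols. The deposited table gives 1 normalized count for each gene in each library, a signal scaled between libraries by the authors and not divided by gene length. Kallisto 0.42.5 and DESeq2 are named in the submitters' processing notes, and the annotation, strand setting and options are not given in the sources used here. Taking the most frequent low value as 1 read, 25.6% to 41.1% of values up to 20 reads were whole to within 0.01 of a read, so no count model could be used and no counting interval is given. No pair of libraries shared an identical value above 0. Of 38258 genes, 37483 had coordinates identical to GENCODE M21 (GRCm38), from which the build is named; a transcript length was used for all of the 45 but *Pola2*.

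Values were analysed as log2(normalized count + 1), which understates changes of low genes, for genes with a mean of at least 10, with limma 3.58.1 in R 4.3.3 (mean-variance trend, robust, Benjamini-Hochberg over all 23006 genes, threshold 0.05). The procedure was tested on simulated data, where it recovered 6% of 1.5-fold, 20% of 2-fold and 76% of 4-fold changes. Far fewer genes were changed there than were called here. With fewer changed genes the Benjamini-Hochberg adjustment is stricter, so these shares do not give the recovery in the present data. A gene that did not pass may still have changed. Ratios within libraries had an exact two-sided permutation test. The groups come from the titles. Errors are SD for means and SE for log2 changes. All 45 genes and all inhibitors of cyclin-dependent kinases are named. Each of the other lists is represented by at most 3 called genes, taken by p, and at most 2 not called, taken by level. *Pole3*, *Pole4*, *Pold3* and *Rpa3* were named outside this rule, as further subunits of complexes in the set. A gene that this rule would name is not reported here. The members and lists were chosen with earlier results of these data known.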

Additional observations from a re-analysis of the deposited data

How the results depend on the processing

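Gene calls, their counts and the median change of the 45 genes were recomputed under 15 alternatives (14 for *Pola2*); ratios between genes and promoter shares were not: another pseudocount (0.5 or 5), another filter (none, or a mean of 50), another scaling (trimmed-mean factors or quantile normalization), limma with neither a variance trend nor robust estimation, a replicate block, correction for GC content and length (22387 genes, 44 of the 45), and 6 fits that each lacked 1 library. Of 674 values of the 45 genes under these alternatives, 599 kept direction and side of the threshold, 53 lost the call, 14 gained one and 8 turned sign. Under quantile normalization the all-gene median shifted by −0.18, and 45.6% of all calls were higher, against 57.3% as reported; the 45 genes had a median of −1.05 there, −0.87 relative to all genes, and −0.85 relative to all genes as reported. After correction for GC content and length their median was −1.01, and 3 of the 79 other pathway genes were higher. Helicase activation genes lower numbered 3 with no filter, 3 without trend or robust estimation and 3 with the replicate block, clamp, loader and Okazaki maturation genes lower 5 without trend or robust estimation, and nucleotide supply genes lower 2 with the replicate block. The cause of these changes was not tested.

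The replicate numbers did not pair the libraries: the deviations of same-numbered libraries from their group means correlated at 0.061, −0.023 and 0.022, and not every library correlated best with its own number. With the replicate block 29 of the 32 genes were lower again, the other 3 being *Gins3* (adjusted p = 0.0750), *Gins4* (0.0572) and *Rpa1* (0.0571), and *Tyms* was lower too (0.0382), beside 3345 lower and 4761 higher among all genes.

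With 1 library left out, the 45 genes had 23 to 30 lower and 0 to 2 higher, with a median of −0.99 to −0.78. By step, 7 to 9 licensing, 2 to 4 helicase activation, 4 to 7 polymerase, 5 to 7 clamp, loader and maturation, and 1 to 3 G1/S genes were lower, as were 1 nucleotide supply and 2 chromatin assembly genes in each of these fits. Other pathway genes had 28 to 39 lower and 4 to 14 higher, mitosis genes 22 to 24 lower, an alternative chosen after seeing the data, and all genes 2495 to 4016 lower and 3632 to 5610 higher.

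Log2 changes that turned sign were all of genes not called. *Pold2* had −0.038 with quantile normalization, −0.37 with the GC and length correction, −0.038 without control replicate 1 and −0.020 without control replicate 2 (−0.038 to 0.54 over the fits that lacked 1 library). *E2f2* had −0.042 with quantile normalization, −0.41 with the GC and length correction and −0.083 without control replicate 2 (−0.083 to 0.23 over the fits that lacked 1 library). *Timeless* had −0.058 with quantile normalization, −0.33 with the GC and length correction, −0.065 without TKO-labelled replicate 1 and −0.003 without control replicate 3 (−0.065 to 0.25 over the fits that lacked 1 library). *Tk1* had −0.15 with the GC and length correction. *Rnf2* had 0.082 with the GC and length correction. *Orc3* had 0.0029 with the GC and length correction. *Top1* had 0.0033 with the GC and length correction. *Mtbp* had 0.070 without TKO-labelled replicate 2 (−0.33 to 0.070 over the fits that lacked 1 library). *Gart* had 0.013 without TKO-labelled replicate 2 (−0.20 to 0.013 over the fits that lacked 1 library). *Chtf8* had −0.075 without control replicate 2 (−0.075 to 0.44 over the fits that lacked 1 library). With values that are not whole reads, the depth behind low genes is not known.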
